A study of Mus musculus with 57 samples.

Results

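The genes that load and show peptides on major histocompatibility complex (MHC) class I and class II molecules were followed through 57 mouse livers. The 10 members were the rows whose Ensembl identifier maps to H2-Aa, H2-Ab1, H2-Eb1, H2-DMa, Cd74, Ciita, H2-K1, H2-D1, B2m or Tap1, which is 10 of the 54307 genes in the table. Of these 10, 10 passed the filter on low counts in the 7 comparisons with a route vehicle.

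The livers came from male wild-type C57BL/6JJcl mice aged 6 weeks, acclimatised for 1 week, fasted for 12 h, given 1 dose and killed 24 h later. By gavage, 4 mice received ANIT (alpha-naphthyl isothiocyanate), 6 APAP (acetaminophen), 7 MDA (4,4'-methylene dianiline) and 5 TAA (thioacetamide), against 13 mice given 0.5% methylcellulose (Ctrl). By intraperitoneal injection, 7 received CCl4 (carbon tetrachloride) and 4 GAL (galactosamine), against 2 mice given saline (CIP). By tail vein, 7 received ConA (concanavalin A, a lectin that activates T cells), against 2 mice given saline (CIV). Corn oil is also named as a vehicle, but none of the groups used here received it alone, so a compound given in corn oil differs from its controls in vehicle too. The whole set shares the perfusion of the liver before sampling of the outer left lateral lobe, and the labels tell of no second dose or time. Each mouse gave 1 library.

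MHC class II molecules show peptides from engulfed material to CD4 T cells and are made mainly by B cells, dendritic cells and macrophages, the Kupffer cells of the liver included. Their alpha and beta chains (H2-Aa with H2-Ab1, and H2-Eb1) assemble on the invariant chain Cd74, H2-DMa helps to exchange the peptide, and Ciita is the coactivator that switches the set on. Class I molecules are made by nearly all nucleated cells and show peptides from the cell's own proteins to CD8 T cells: H2-K1 and H2-D1 are the heavy chains, B2m the shared light chain, and Tap1 a subunit of the transporter that brings peptides to them. Interferon gamma, in part through Irf1, raises both sets, with Ciita as the class II and Nlrc5 as the class I coactivator. Mice of the C57BL/6 background make no H2-Ea chain, so H2-Eb1 has no usual partner there.

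The promoters of both classes are known for a shared module in which an X box, its neighbour with a TGACG core and a CCAAT box stand close together. The windows below are shown because class II and class I genes differed in which compounds moved them, and they let the start of the genes be compared. They are the 250 bases before the annotated start, 5′ to 3′ on the gene's strand, from RefSeq on build GRCm38.p6, with every match to the 4 searched motifs in capitals. H2-Aa lies at chr17:34287824-34288073 (minus strand), H2-Eb1 at chr17:34305617-34305866 (plus), H2-K1 at chr17:34000334-34000583 (minus, 1 of 2 listed starts), H2-D1 at chr17:35262844-35263093 (plus), Tap1 at chr17:34187306-34187555 (plus) and B2m at chr2:122147437-122147686 (plus).
H2-Aa: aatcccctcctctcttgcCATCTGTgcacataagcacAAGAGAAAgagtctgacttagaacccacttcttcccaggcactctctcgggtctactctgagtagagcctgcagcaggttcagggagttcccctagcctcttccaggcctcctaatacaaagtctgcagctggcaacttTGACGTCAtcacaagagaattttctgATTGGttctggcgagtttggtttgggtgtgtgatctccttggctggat
H2-Eb1: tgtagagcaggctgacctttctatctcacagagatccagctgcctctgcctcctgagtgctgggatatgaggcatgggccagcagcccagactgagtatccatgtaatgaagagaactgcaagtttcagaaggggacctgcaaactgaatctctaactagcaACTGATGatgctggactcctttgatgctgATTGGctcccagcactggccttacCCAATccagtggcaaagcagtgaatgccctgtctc
H2-K1: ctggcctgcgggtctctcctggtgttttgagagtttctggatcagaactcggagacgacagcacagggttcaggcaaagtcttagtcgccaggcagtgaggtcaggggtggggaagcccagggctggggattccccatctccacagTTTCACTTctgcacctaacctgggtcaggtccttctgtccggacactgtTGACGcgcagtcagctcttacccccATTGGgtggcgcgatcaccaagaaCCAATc
H2-D1: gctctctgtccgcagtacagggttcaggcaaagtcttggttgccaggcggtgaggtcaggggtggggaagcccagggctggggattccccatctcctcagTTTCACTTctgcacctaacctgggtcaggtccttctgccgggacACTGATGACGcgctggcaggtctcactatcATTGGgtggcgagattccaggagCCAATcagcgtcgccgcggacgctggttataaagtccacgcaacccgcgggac
B2m: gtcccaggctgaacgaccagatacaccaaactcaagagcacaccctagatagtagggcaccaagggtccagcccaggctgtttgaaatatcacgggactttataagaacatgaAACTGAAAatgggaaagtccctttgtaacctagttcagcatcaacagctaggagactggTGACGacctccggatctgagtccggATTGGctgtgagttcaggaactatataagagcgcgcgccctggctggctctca
Tap1: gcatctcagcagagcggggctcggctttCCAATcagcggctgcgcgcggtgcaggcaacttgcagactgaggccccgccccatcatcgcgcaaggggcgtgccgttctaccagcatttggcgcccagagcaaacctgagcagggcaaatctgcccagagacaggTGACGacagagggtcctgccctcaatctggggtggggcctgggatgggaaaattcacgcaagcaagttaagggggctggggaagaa

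The motifs were searched on both strands of 32851 promoter windows of 250 bases. CCAAT, or its complement, was in all 6 windows above and in 33.8% of all windows. TGACG was in the windows of B2m, H2-K1, Tap1, H2-Aa and H2-D1 and in 17.8% of all windows, and in H2-Aa the matches on both strands overlap. ACNGATG, the end of a common X box form, was in H2-Eb1, H2-Aa and H2-D1 and in 8.31%; in H2-D1 it overlaps the TGACG match, and in H2-Aa it lies far upstream. AANNGAAA, the core of an interferon response element, was in B2m, H2-K1, H2-Aa and H2-D1 and in 21.3%. The spacing was shared by 4 genes: TGACG began 25 bases before the CCAAT complement in B2m, H2-K1 and H2-D1 and 26 bases before it in H2-Aa, although the pair stood at −78, −55, −101 and −74 from the start. That spacing, chosen after it was seen, was present in 27 of the 32851 windows (0.0822%), and not in those of Tap1 and H2-Eb1. H2-DMa, whose 2 listed windows are not shown, lacks it too: neither window held TGACG or ACNGATG, 1 held CCAAT and AANNGAAA, and the other held none of the 4 motifs. A match describes letters in the window and does not show a bound factor. The Tap1 window shares 225 of its 250 bases with that of Psmb9, an immunoproteasome subunit that is read from the other strand.

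A library held between 13826343 and 35075809 estimated counts (median 21532116), and 5.11% to 39.3% of a library was mitochondrial. Levels are given as CPM, the estimated count scaled to a common library size with the trimmed mean of M-values (TMM), differences as log2 fold changes with their standard error (SE), and a gene was called at an edgeR adjusted p under 0.05. Several libraries stand apart. TAA mouse 1 was the highest of its group for 8 of 10 members, and so was APAP mouse 1 of its own. The 4 Ctrl mice numbered 1 to 4 were lower than the 9 others for several members. The values with and without these mice are given where they matter. Nothing in the labels says whether mice with the same number share a day or batch, so p-values measure the spread between these mice.

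In the vehicle livers the class I chains were abundant and the class II set was not. Mean CPM in the Ctrl mice was 2439 for B2m, 1266 for H2-K1 and 434 for H2-D1, against 118 for Cd74, 40.6 for H2-Aa, 35.8 for H2-Ab1 and 27.1 for H2-Eb1. Tap1 averaged 20.2, H2-DMa 7.17 and Ciita 0.746 CPM. The deposited values look corrected for transcript length, so these levels can be set beside each other roughly per length, within the limits of that reading. Over all 17 vehicle mice, Cd74 over H2-Ab1 had a median of 3.25 and a range of 2.81 to 3.99, while H2-K1 over H2-D1 ranged from 2.18 to 3.64.

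The vehicle groups were first compared with each other. None of the 10 members was called in CIP against Ctrl or in CIV against Ctrl, where 0.0131% and 0.0263% of all tested genes were called. The levels of the 2 CIP mice were nevertheless high for class II. H2-Ab1 was 57.4 and 62.0 CPM in the CIP mice, against a lowest of 18.5, a median of 39.8 and a highest of 49.1 in the Ctrl mice. Cd74 was 198 and 176 in CIP and at most 155 in Ctrl. For 4 members the CIP values lay above every Ctrl value, beside 0.867% of all genes. The 2 CIV mice differed from each other: H2-K1 was 1782 in mouse 7 and 1011 in mouse 8, and Tap1 was 37.6 and 16.1. A fold change against CIP or CIV rests on these 2 mice, so the comparison with all 17 vehicle mice is given beside it.

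Within Ctrl, the mice numbered 1 to 4 had lower levels of several members than the 9 others, numbered 7 to 18. H2-K1 was 791 to 1012 CPM in the first set and 1164 to 1640 in the second, with no overlap, and its log2 difference was −0.62 ± 0.12 (edgeR adjusted p 0.013). H2-D1 (−0.71 ± 0.14, adjusted p 0.0152), Tap1 (−0.76 ± 0.16, adjusted p 0.0209) and H2-DMa (−0.90 ± 0.21, adjusted p 0.0423) were called too. These 4 of 10 members stand beside 2.33% of all genes called. Cd74 (−0.44) and H2-Ab1 (−0.52) were not called. Kupffer cell markers moved with this split: 5 of the 7 were lower in the mice numbered 1 to 4, and their part in the difference was not tested. All 4 ANIT mice carry numbers 1 to 4, which bears on every ANIT value below.

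By group median, the 6 class II members were lowest after ANIT and MDA. Both are bile duct toxicants given by gavage, and after each of them all 6 class II members fell. H2-Ab1, the beta chain of the main class II molecule of this strain, was 8.83, 12.9, 11.0 and 17.7 CPM in the ANIT mice. In the MDA mice it had a lowest of 6.87, a median of 14.9 and a highest of 23.5 CPM, against the Ctrl values of 18.5, 39.8 and 49.1. Every ANIT mouse lay below every Ctrl mouse, and so did 6 of the 7 MDA mice. H2-Ab1 was 2.83-fold lower after ANIT (log2 −1.50 ± 0.24, edgeR adjusted p 0.000182) and 2.49-fold lower after MDA (−1.31 ± 0.23, adjusted p 0.000177).

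Its partner H2-Aa behaved alike. It was 11.9, 19.1, 14.2 and 19.1 CPM after ANIT and 12.9, 16.8 and 28.2 (lowest, median, highest) after MDA, against 22.3, 40.9 and 53.2 in Ctrl. The ANIT and Ctrl values do not overlap, while the highest MDA mouse reaches into the Ctrl range. The log2 differences were −1.33 ± 0.22 (edgeR adjusted p 0.00028) and −1.20 ± 0.18 (adjusted p 3.87e-05). H2-Eb1, the beta chain without its usual partner, was 5.72, 12.1, 10.6 and 7.91 CPM after ANIT and 4.69, 10.2 and 17.2 after MDA, against 12.1, 29.5 and 38.7 in Ctrl. It fell by 1.57 and 1.43 on the log2 scale, and 1 ANIT mouse overlapped the lowest Ctrl mouse by a small margin.

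Cd74, the invariant chain, was 38.5, 47.1, 47.6 and 63.5 CPM after ANIT, and 23.6, 47.6 and 71.8 after MDA. The Ctrl mice gave 57.6, 131 and 155, so the highest treated mice overlap only the lowest Ctrl mice. The log2 differences were −1.26 ± 0.22 (edgeR adjusted p 0.000356) and −1.29 ± 0.23 (adjusted p 0.000185). H2-DMa, the peptide exchanger, fell by 1.39 and 1.18 on the log2 scale, from a Ctrl median of 7.74 CPM to 2.63 and 2.56. Ciita, the coactivator, fell by 1.76 ± 0.46 and 1.93 ± 0.43 (edgeR adjusted p 0.00831 and 0.00163), but it was near the counting floor in the treated livers: at most 5.27 estimated counts in any ANIT mouse and 7.74 in any MDA mouse, with 1 MDA mouse at 0.

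Together 9 of the 10 members were called lower after ANIT and 8 after MDA, beside 28.2% and 33.8% of all genes called in either direction. Their median log2 difference was −1.36 after ANIT and −1.19 after MDA, against −0.01 and 0.03 over all genes. When the range of mouse numbers was added to the ANIT fit, H2-Aa (−0.96), H2-Ab1 (−1.12), H2-Eb1 (−1.01) and Cd74 (−0.94) were still called, and H2-DMa (−0.71) and Ciita (−0.85) were not, beside 19.1% of all genes. The MDA mice spread over both ranges, and with the same term all 6 class II members were still called, from −0.96 for H2-DMa to −1.66 for Ciita, beside 34.6% of all genes. With the mice numbered above 4 alone all 6 were called too, beside 20.6%. Within the mice numbered 1 to 4 alone, MDA kept 2 of the 9 members tested, H2-Aa (−1.11) and H2-Ab1 (−1.35), beside 10.4% of all genes, while Cd74 (−1.29) and H2-Eb1 (−1.33) were not called. Other markers moved with these values. Of the 7 Kupffer cell markers 2 fell and 1 rose after each compound, and their summed level was 243 to 320 CPM after ANIT (median 304) and 228 to 429 after MDA (median 268), against 217 to 637 in Ctrl (median 432). T and NK cell markers fell for 2 of the 5 tested after ANIT and 2 of the 4 after MDA, with sums of 1.15 to 2.60 and 0.769 to 2.88 CPM against 2.57 to 9.69 in Ctrl. None of these markers was at 0 in every mouse of a group, and their part in the class II values was not tested. In bulk liver, fewer cells that make a gene and less RNA per cell cannot be told apart.

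**Figure D1:**
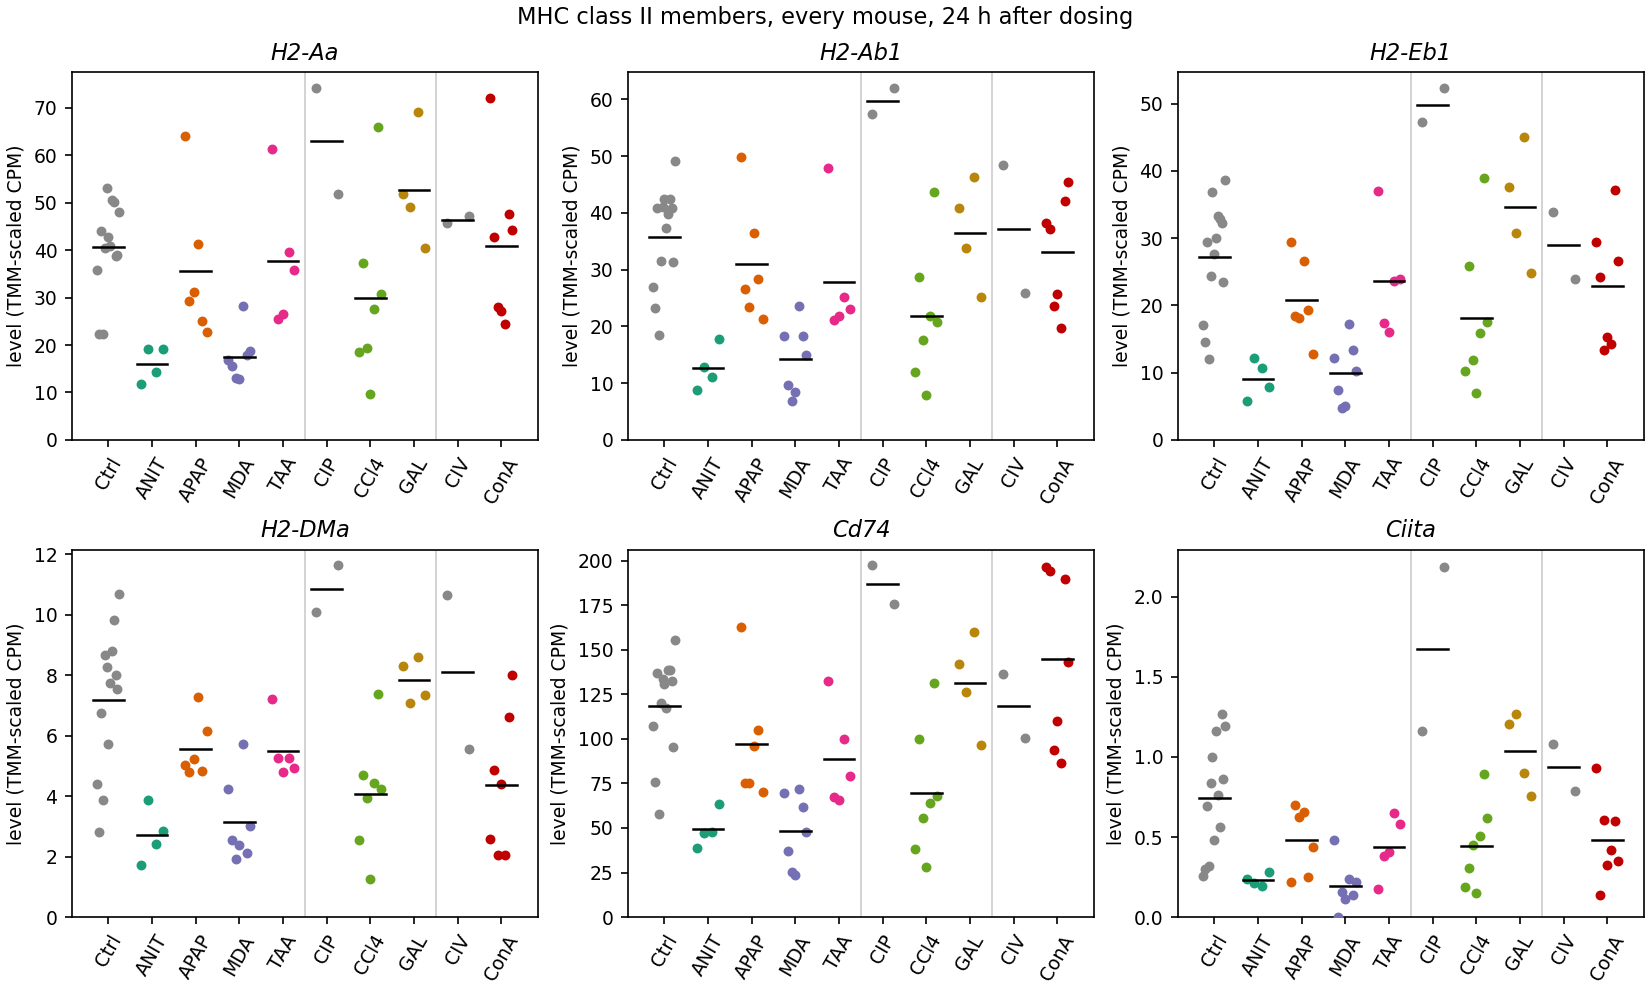
Levels of the 6 class II members (TMM-scaled CPM, linear axis) in each mouse, by group, with the group mean as a line. The ANIT and MDA means are the lowest in every panel (H2-Ab1 12.6 and 14.3, Ctrl 35.8). Single CCl4 mice lie as low for some genes, and the ConA mice overlap the vehicle mice.

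APAP and TAA, which injure hepatocytes around the central vein, left none of the 6 class II members called over all mice. After APAP H2-Ab1 was 21.3, 27.4 and 49.8 CPM (lowest, median, highest), so that only the highest mouse lay outside the Ctrl range, just above its top of 49.1. Its log2 difference was −0.17 with an interval of −0.56 to 0.22. Over the 6 genes the differences ran from −0.15 for H2-Aa to −0.59 for Ciita, with edgeR adjusted p from 0.228 to 0.627. Within the mice numbered 1 to 4 the 6 values had the other sign, 0.20 to 0.48, and none was called. The APAP mice of that range are mice 1, 2 and 4, and mouse 1 was the highest of its group for most members. After TAA H2-Ab1 was 47.9, 21.1, 21.8, 25.1 and 23.01 CPM, and the log2 difference of −0.31 ± 0.22 had an adjusted p of 0.267. TAA mouse 1 decides that value. Without it, H2-Ab1 (−0.62) and Cd74 (−0.57) were called lower, beside 50.9% of all genes. With the mice numbered above 4 alone, 4 of the 6 were called lower after TAA, H2-Ab1 (−0.72), H2-DMa (−0.71), Cd74 (−0.62) and H2-Eb1 (−0.51), beside 47.4% of all genes. Within the mice numbered 1 to 4 the 5 class II members tested had the other sign, 0.12 to 0.60, and none was called, beside 19.4%. The TAA mice of that range are only mice 1 and 3, so the high mouse 1 weighs heavily there.

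The direct comparisons bear on whether the gavage compounds differ. Of the 6 pairs of gavage compounds, ANIT against MDA gave none of the members called, where 0.240% of all genes were. The log2 difference in Cd74 was 0.03 with an interval of −0.57 to 0.63, which leaves room for a difference in either direction. ANIT was below APAP for 6 members, beside 16.9% of all genes, with H2-Ab1 at −1.30 and H2-Aa at −1.15. It was below TAA for 4, beside 23.8%, with H2-Eb1 at −1.37. MDA was below APAP for 5 members, beside 16.5%, and below TAA for 4, beside 26.2%; H2-Ab1 was 1.11 higher in APAP than in MDA and −0.96 in MDA against TAA. Within the mice numbered 1 to 4 alone, ANIT against APAP, ANIT against TAA and APAP against MDA gave 0 of the 9 members tested called by edgeR, beside 0.239%, 2.68% and 0.521% of all genes. The differences in H2-Aa, H2-Ab1, H2-Eb1 and Cd74 were larger there than over all mice, in these smaller groups. H2-Ab1 was at −1.45 for ANIT against APAP, H2-Eb1 at −1.62 for ANIT against TAA and H2-Ab1 at 1.64 for APAP against MDA.

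After CCl4, a toxicant activated in hepatocytes, 4 of the 6 class II members were called lower than in the 2 CIP mice. Cd74 was 28.2, 63.9 and 132 CPM (lowest, median, highest) after CCl4, against 198 and 176. The groups do not overlap, and Cd74 was 2.62-fold lower (log2 −1.39 ± 0.45, edgeR adjusted p 0.0413). H2-Ab1 was 7.85, 20.8 and 43.7 CPM against 57.4 and 62.0, again without overlap (−1.41 ± 0.48, adjusted p 0.0461). Ciita (−1.80) and H2-DMa (−1.37) were called, H2-Eb1 (−1.41, adjusted p 0.0577) and H2-Aa (−1.04, adjusted p 0.169) were not. With H2-K1 and B2m, 6 of 10 members were called lower, beside 33.5% of all genes called, and 7 members did not overlap, beside 19.9% of all genes lower without overlap. Without either CIP mouse, none of the 10 was called, and with the library total none was either. Of the 7 Kupffer cell markers 3 fell and 1 rose, with sums of 162 to 477 CPM after CCl4 and 460 to 465 in CIP, and their part was not tested.

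Against all 17 vehicle mice, Cd74 was −0.88 ± 0.24 (edgeR adjusted p 0.00269) and H2-Ab1 −0.85 ± 0.25 (adjusted p 0.00635) after CCl4, where 53.4% of all genes were called. These calls rest on the scaling. With the library total in place of TMM, the median of all genes moved by 0.53, no class II member was called, and 2 of the 10 members were: H2-D1 higher (0.56) and B2m lower (−0.36).

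GAL is an amino sugar that blocks RNA synthesis in hepatocytes, and edgeR called no class II member after it. Cd74 was 142, 126, 160 and 96.6 CPM and H2-Ab1 was 40.8, 33.7, 46.4 and 25.1. These lie inside the range of the 17 vehicle mice and below both CIP mice. None of the 6 genes was called against CIP (−0.27 for H2-Aa to −0.71 for H2-Ab1) or against all vehicles (−0.11 for H2-Ab1 to 0.23 for H2-Aa). The reading is again tied to the scaling: with the library total the median of all genes moved by 0.83, and all 6 class II members were called higher than in all vehicles, from 0.69 for H2-Ab1 to 1.04 for H2-Aa, in a fit that called 66.2% of all genes. Compared directly, CCl4 was below GAL for 5 of 10 members, beside 28.6% of all genes: Tap1 (−1.05), H2-DMa (−0.94), H2-Eb1 (−0.92), Cd74 (−0.92) and H2-Aa (−0.82). In the fit of these 2 groups alone H2-Eb1 (adjusted p 0.0643) and H2-Aa (adjusted p 0.0986) were not called. With the mice numbered above 4 none of these 5 was, at differences of −0.85 to −0.94 and adjusted p from 0.0776 to 0.27, beside 35.9% of all genes.

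After ConA no class II member was called against CIV. Cd74 was 86.6, 143 and 196 CPM (lowest, median, highest) against 136 and 100, and H2-Ab1 was 19.7, 37.2 and 45.4 against 48.4 and 25.8. Both sets of values overlap, and the log2 difference of Cd74 was 0.36 ± 0.39 (edgeR adjusted p 0.508). With 2 CIV mice its interval, −0.40 to 1.12, reaches more than 1 log2 unit upward. Against all vehicles H2-DMa was called lower (−0.70 ± 0.27, adjusted p 0.0254). With the library total, which moved the median of all genes by −0.62, 5 of the 6 were called lower and Cd74 was not (−0.38). Kupffer cell markers moved in these livers: all 7 fell against CIV, their summed level being 45.7 to 81.4 CPM after ConA and 383 to 432 in CIV. Their part in the class II levels was not tested.

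The class I genes showed another pattern, with one compound far above the rest. After ConA Tap1, the peptide transporter subunit, had a lowest of 138, a median of 202 and a highest of 301 CPM. The CIV mice had 37.6 and 16.1, and the highest of all 17 vehicle mice was 37.6. Every ConA mouse was thus well above every vehicle mouse. Tap1 was 8.46-fold higher than in CIV (log2 3.08 ± 0.42, edgeR adjusted p 0.000519) and 11.3-fold higher than in all vehicles (3.49 ± 0.18, adjusted p 7.19e-15). Other signals moved with it. All 4 neutrophil markers rose against CIV, with a summed level of 126 to 286 CPM against 5.72 to 6.26, and 2 of the 4 cholangiocyte markers rose, with sums of 30.1 to 68.3 against 3.97 to 7.01. The mitochondrial share was 14.6% to 39.3% after ConA, with a median of 24.4%, the highest of the 10 groups. It overlapped the CIV mice, which had 6.79% and 25.4%. Their part in the class I values was not tested.

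H2-D1, a heavy chain, was 1455, 1740 and 1836 CPM after ConA, against 589 and 323 in CIV. It was 3.85-fold higher (log2 1.95 ± 0.28, edgeR adjusted p 0.000636), and the groups do not overlap. H2-K1, the other heavy chain, was 1784, 2964 and 3216 against 1782 and 1011, so that the lowest ConA mouse only just exceeded the highest CIV mouse. Its log2 difference was 1.02 ± 0.31 (adjusted p 0.0276). B2m, the light chain, was 2585, 3581 and 4354 against 2109 and 2967, which overlap, and was not called against CIV (0.55 ± 0.26, adjusted p 0.127). Against all vehicles it was (0.67 ± 0.10, adjusted p 3.74e-06).

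Against CIV 3 of the 10 members were called, all higher, beside 34.2% of all genes called in either direction. The same 3 did not overlap CIV, beside 18.5% of all genes higher without overlap. Against all vehicles 5 members were called, beside 68.0% of all genes, and 3 did not overlap, beside 11.7%. With the library total, Tap1 (2.39) and H2-D1 (1.32) were still called against CIV, H2-K1 (0.43) was not, and against all vehicles B2m was at 0.02. The 31-base words of the H2-K1 transcripts are shared with other genes for 23.3% of their length positions and those of H2-D1 for 27.5%, so estimated counts can move between these heavy chains and their relatives.

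The heavy chains rose unequally. H2-K1 over H2-D1 was 1.23 to 1.85 after ConA, below the vehicle range of 2.18 to 3.64. CCl4 mice had 1.71 to 2.21 and APAP mice 1.43 to 2.30. Tap1 over Cd74, a ratio of a class I to a class II gene within 1 library that no scaling of the library alters, was 0.969 to 2.62 after ConA and 0.0776 to 0.276 in the vehicle mice. At the other end, TAA mice had 0.0464 to 0.136.

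**Figure D2:**
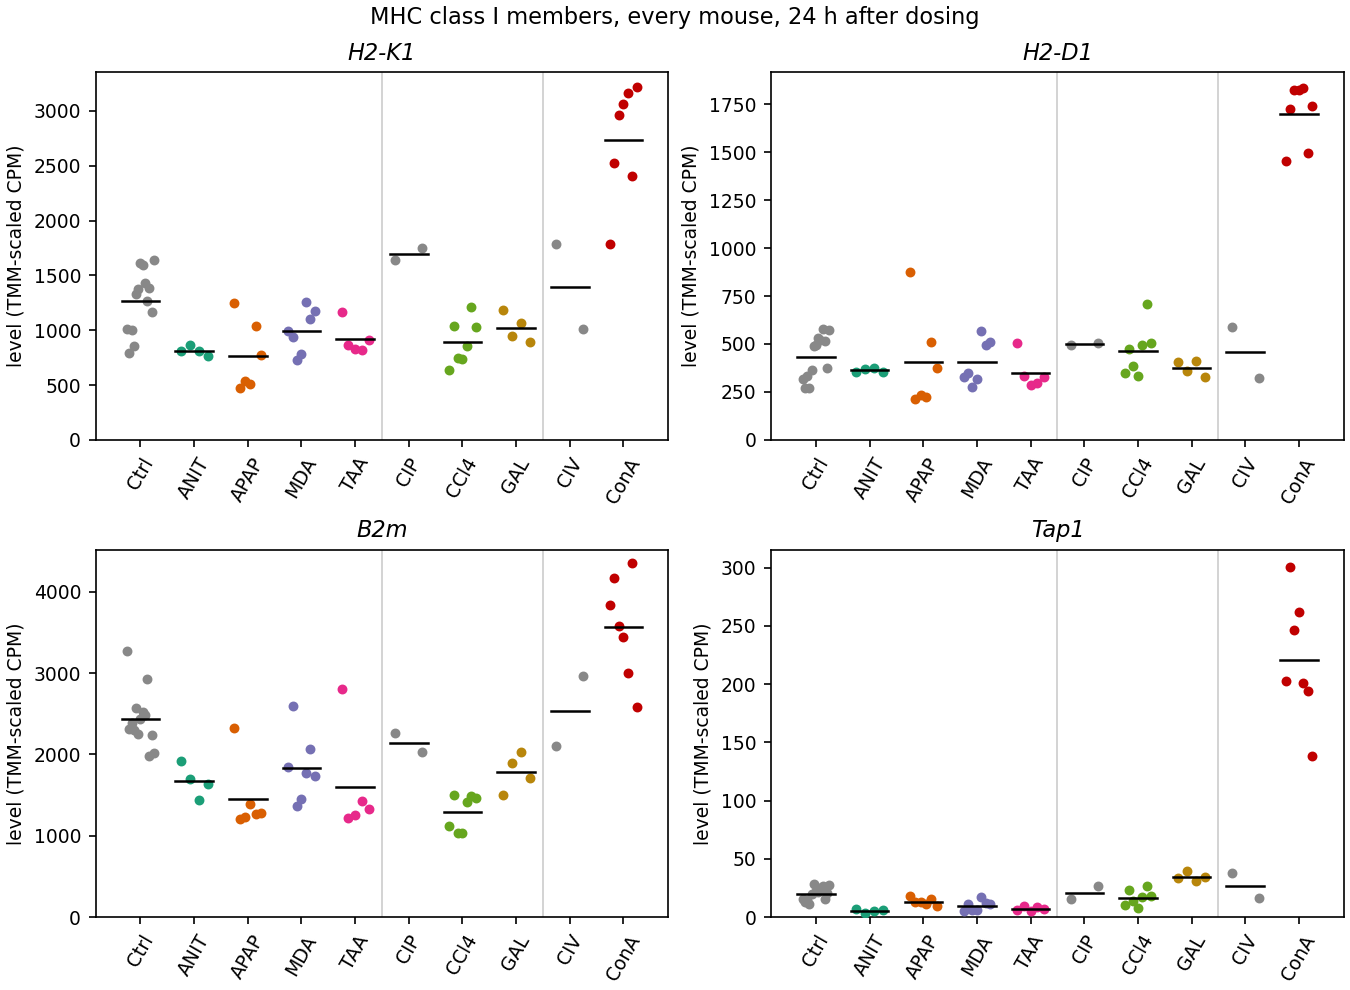
Levels of the 4 class I members (TMM-scaled CPM, linear axis) in each mouse, by group, with the group mean as a line. ConA mice stand above all others for Tap1 (138 to 301) and H2-D1 (1455 to 1836). The ANIT and TAA means are the lowest for Tap1 (5.59 and 7.30).

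**Figure D3:**
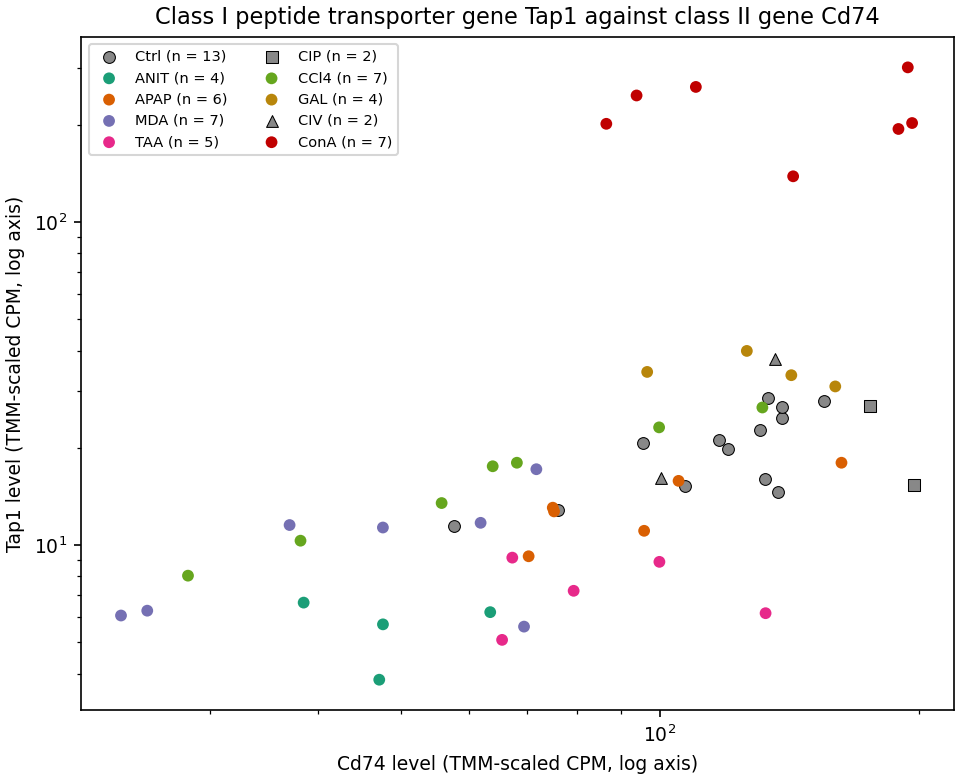
Tap1 against Cd74 in the 57 livers, both in TMM-scaled CPM on log axes, 1 point per mouse and coloured by group. ConA mice lie above the rest at vehicle-like Cd74 levels, ANIT and MDA mice at low Cd74, and ANIT and TAA mice at low Tap1. Single CCl4 mice reach low Cd74 too.

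Among the other 6 compounds, the 4 class I members were called lower or not called as fitted with TMM, with 1 exception, Tap1 after GAL against all vehicles. H2-D1 after CCl4 (0.56) and B2m after GAL (0.38) were called higher than in all vehicles with the library total. Tap1 after GAL was then called higher than in CIP too (1.52). With TMM, B2m after GAL was called lower than in all vehicles, so its call turned sign with the scaling. Tap1 was 6.64, 3.83, 5.68 and 6.20 CPM after ANIT and 6.15, 9.14, 5.09, 8.87 and 7.22 after TAA, against 11.5, 20.8 and 28.6 in Ctrl. Neither group overlaps Ctrl, nor do H2-Aa, H2-Ab1 and B2m after ANIT. Lower without overlap were 4 members after ANIT, beside 5.00% of all genes, and 1 after TAA, beside 10.2%. Tap1 was 3.61-fold lower after ANIT (log2 −1.85 ± 0.26, edgeR adjusted p 5.25e-05) and 2.67-fold lower after TAA (−1.42 ± 0.22, adjusted p 2.92e-05). After MDA (5.59, 11.3 and 17.2) and APAP (9.23, 12.9 and 18.0) it overlapped Ctrl and was called lower too, at −1.01 ± 0.23 (adjusted p 0.00193) and −0.57 ± 0.20 (adjusted p 0.035). With the range of mouse numbers in the fit, the ANIT value was −1.28 and the MDA value −0.83, both called, while the APAP value was −0.43 and not called (adjusted p 0.0969). The APAP value was −0.47 with the library total (adjusted p 0.146) and 0.16 within the mice numbered 1 to 4, not called in either, and the call was also lost without APAP mouse 2, 4, 6 or 11 (adjusted p 0.0587 to 0.0924). Directly compared, APAP stood above TAA by 0.86 ± 0.28 for Tap1 (edgeR adjusted p 0.0388). It was the 1 member called of 10, beside 9.65% of all genes. In the TAA livers neutrophil markers summed to 151 to 771 CPM, against 0.695 to 49.1 in Ctrl. Cholangiocyte markers summed to 12.3 to 25.8 CPM after TAA, against 3.91 to 10.3 in Ctrl. The part of these markers in the class I values was not tested.

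B2m was called lower after all 4 gavage compounds. It was 1920, 1699, 1446 and 1631 CPM after ANIT, and 2800, 1218, 1253, 1430 and 1324 after TAA, against 1982, 2391 and 3273 in Ctrl. The ANIT mice lie below every Ctrl mouse, and so do 4 of the 5 TAA mice. The log2 differences were −0.54 ± 0.13 (edgeR adjusted p 0.00416) and −0.54 ± 0.18 (adjusted p 0.0185), the latter −0.87 without TAA mouse 1, and −0.45 to −0.47 and not called without mouse 3, 6 or 8 (adjusted p 0.063 to 0.0658). After APAP B2m fell by 0.71 ± 0.15 (adjusted p 0.00125), or by 0.91 without APAP mouse 1, and after MDA by 0.41 ± 0.13 (adjusted p 0.0162).

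H2-K1 fell by 0.69 after APAP, from a Ctrl median of 1329 CPM to 655, with a highest of 1248 in mouse 1 and a lowest of 477 (edgeR adjusted p 0.0194). That call was lost with the library total (−0.62, adjusted p 0.0548), within the mice numbered 1 to 4 (−0.22, adjusted p 0.732) and without APAP mouse 2 (−0.58, adjusted p 0.05). H2-K1 fell by 0.64 after ANIT (811, 868, 811 and 763 CPM, adjusted p 0.0129), but that difference was −0.17 and not called once the range of mouse numbers was in the fit. Its differences after MDA (−0.34, edgeR adjusted p 0.0948) and TAA (−0.41, adjusted p 0.0537) missed the threshold against Ctrl. Against all vehicles H2-K1 was called lower after both. The MDA value there was −0.40 (edgeR adjusted p 0.0467), and that call was lost with the library total (adjusted p 0.0999). H2-D1 was not called after any gavage compound, from −0.25 to −0.05. With the mice numbered above 4 alone, H2-K1 (−0.70) and H2-D1 (−0.66) were called lower after TAA, and within the mice numbered 1 to 4 none of the class I members was, with Tap1 at −0.79 (adjusted p 0.0666). In all, 3 of 10 members were called lower after APAP and 2 after TAA, beside 31.8% and 50.5% of all genes called, so these shares are at or below the background.

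By injection, H2-K1 was called lower after CCl4 (634, 860 and 1211 CPM against 1643 and 1750; −0.89 ± 0.22, edgeR adjusted p 0.0126) and after GAL (1184, 951, 1066 and 895; −0.73 ± 0.16, adjusted p 0.0183). Neither group overlaps CIP, but both calls were lost with the library total, where CCl4 was at −0.44 and GAL turned sign to 0.0438 (adjusted p 0.213 and 0.877), and without either CIP mouse. The GAL call is the 1 member of 10 beside 28.5% of all genes, and 7 members lay below both CIP mice, beside 25.6% of all genes. B2m fell after CCl4 by 0.69 ± 0.18 (adjusted p 0.0169), and by 0.92 ± 0.11 against all vehicles (adjusted p 5.99e-08). Tap1 ran the other way in GAL mice, which had 33.6, 39.9, 30.97 and 34.3 CPM against 15.3 and 26.9 in CIP. All 4 exceeded both CIP mice, which 26.7% of all genes did, but the difference of 0.73 ± 0.25 was not called (adjusted p 0.0692). It was called against all vehicles (0.69 ± 0.22, edgeR adjusted p 0.0119). There 2 of 10 members were called, Tap1 higher and B2m lower, beside 52.5% of all genes. The highest vehicle mouse, a CIV mouse, lies within the GAL range. Hepatocyte markers summed to 15876 to 26060 CPM after CCl4 and 22423 to 29803 after GAL, against 46580 to 51859 in CIP. The part of these markers in the class I values was not tested.

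**Figure D4:**
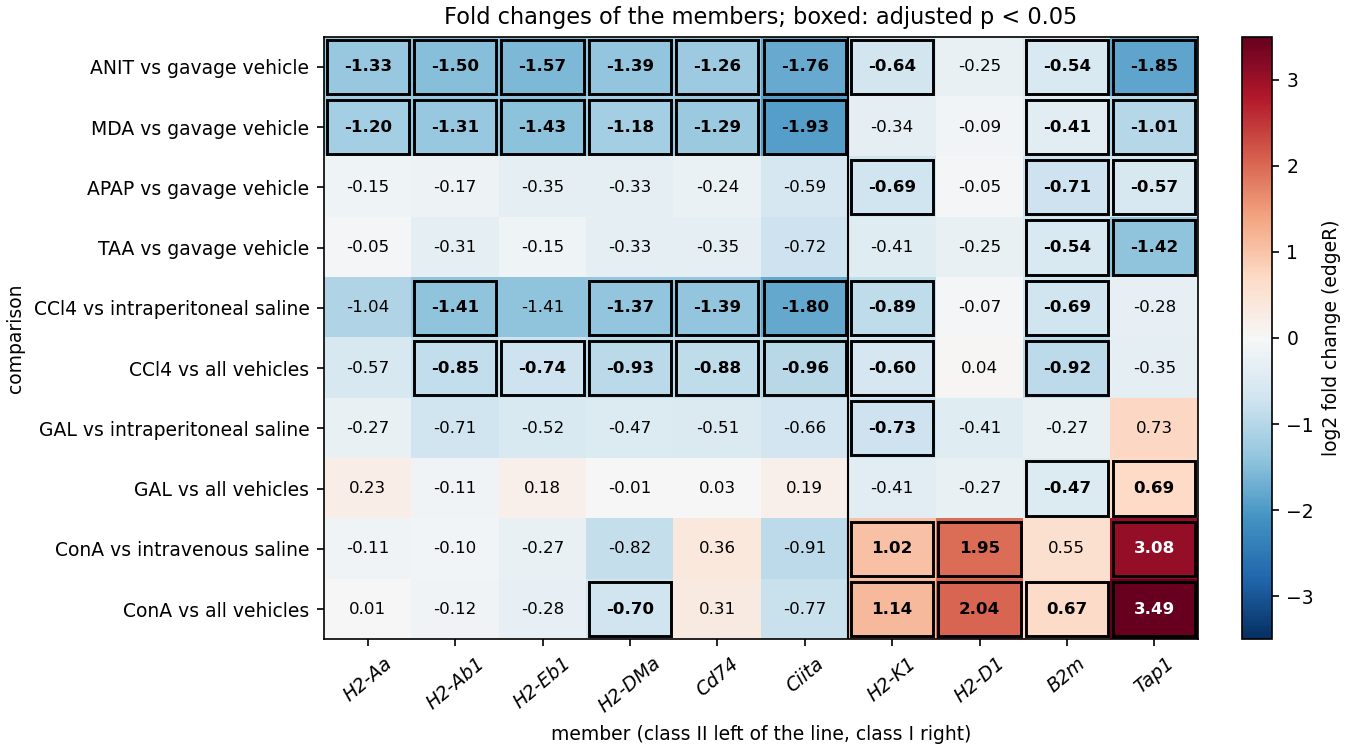
Heat map of log2 fold changes of the 10 members (columns) by comparison (rows), with boxes around called values. The rows are each compound against its route vehicle, and CCl4, GAL and ConA against all vehicles too. Called decreases in the class II columns are in the ANIT, MDA and CCl4 rows and, for H2-DMa, in ConA against all vehicles. Called increases are in the ConA rows, for Tap1 at 3.08 against CIV and 3.49 against all vehicles. Tap1 is also a called increase in GAL against all vehicles.

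The injected compounds were compared through their own vehicles. The ConA effect against CIV exceeded the CCl4 effect against CIP by a log2 difference of 3.37 for Tap1 (edgeR adjusted p 1.67e-05), for H2-D1 by 2.01 (adjusted p 0.00273), for H2-K1 by 1.89 (adjusted p 0.000606), for Cd74 by 1.72 (adjusted p 0.0283) and for B2m by 1.22 (adjusted p 0.00933). These are 5 of 10 members, beside 16.8% of all genes. It exceeded the GAL effect for Tap1 by 2.32 (adjusted p 0.00207), for H2-D1 by 2.31 (adjusted p 0.000963) and for H2-K1 by 1.70 (adjusted p 0.00259), 3 members beside 16.8%. With the library total, which moved the median of all genes by −0.99 and −1.28, 1 and 0 members were called.

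The other genes of the class II pathway were read next, 13 in all. Counts of this list and of those that follow stand beside the share of all genes called in either direction, which was 28.2% after ANIT, 31.8% after APAP, 33.8% after MDA, 50.5% after TAA, 33.5% after CCl4, 28.5% after GAL and 34.2% after ConA. The class II pathway counts are near or below these shares. After ANIT 3 of the 10 that passed the filter fell and 0 rose: H2-DMb2 (−2.27 ± 0.49) and H2-DMb1 (−1.19 ± 0.35), the partners of H2-DMa, and H2-Ob, a chain of the B cell modulator of peptide exchange, which was 0.125 to 1.13 CPM in Ctrl and at most 0.0951 after ANIT. After MDA the same 3 genes fell, H2-DMb2 by 1.83 and H2-DMb1 by 0.90. With the range of mouse numbers in the ANIT fit, H2-DMb1 was not called and 1 gene was called higher. After TAA 4 of 11 rose, among them H2-Ob (1.80) and H2-Oa (1.62), and 2 fell, with Rfxank, a subunit of the X box factor, at −1.40. B cell markers moved alike: after TAA 3 of the 4 tested rose, with a summed level of 4.33 to 20.8 CPM, after ANIT 2 of 4 fell (0.537 to 3.74) and after MDA 3 of 3 (0.450 to 2.13), against 2.04 to 15.8 in Ctrl. Their part in the class II values was not tested.

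After APAP, 2 of 10 of these genes rose, the endosomal protease Lgmn (1.32 ± 0.19) and the thiol reductase Ifi30 (0.66 ± 0.13), and 0 fell. After CCl4 1 of 11 was called, Rfxank at −0.90, and after GAL 2, Rfxank at −1.13 and Lgmn at 0.63. After ConA 1 of 10 was called, the invariant chain protease Ctss at −1.03 ± 0.31. The 8 dendritic cell markers summed to 2.68 to 3.83 CPM after ANIT and 2.19 to 8.22 in Ctrl, and edgeR called 0 of the 3 tested. After ConA they summed to 4.29 to 12.3 CPM (median 9.87) against 3.25 to 5.46 in CIV, with 1 of the 4 tested higher and 0 lower, although 1 of the 8, Xcr1, was at 0 in all 7 ConA mice.

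Of the 13 other genes of the class I pathway, all tested in each comparison, 7 rose and 0 fell after ConA against CIV. The immunoproteasome subunits Psmb10 (2.33 ± 0.45) and Psmb8 (1.6 ± 0.29), the loading chaperone Tapbp (1.94 ± 0.49) and Tap2, the partner of Tap1 (1.56 ± 0.44), led them. Nlrc5, the class I coactivator, was 17.7 to 34.0 CPM after ConA and 13.9 to 14.1 in CIV (0.76 ± 0.26, edgeR adjusted p 0.0435). With the library total 1 rose and 1 fell, beside 34.3% of all genes. Gavage compounds went the other way. Psmb9 fell by 2.195 after ANIT, 1.64 after TAA, 1.49 after MDA and 1.35 after APAP, and Psmb8 fell by 1.31, 1.08, 1.13 and 0.62. The counts were 5 lower and 2 higher after ANIT, 8 and 0 after TAA, 6 and 2 after MDA and 6 and 2 after APAP, of 13 genes each, beside 28.2%, 50.5%, 33.8% and 31.8% of all genes called in either direction.

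Psmb9 had 2.00 to 6.34 CPM after ANIT against 8.56 to 24.9 in Ctrl, and 53.0 to 77.3 after ConA. Its promoter window is the one that overlaps that of Tap1. After CCl4 2 genes of this list rose, the chaperones Pdia3 (1.08) and Calr (0.50), and 2 fell, with Psme1, a proteasome activator, at −0.97. After GAL 5 fell and 0 rose, with Calr at −1.91 and Psme1 at −1.06; with the library total 1 fell, beside 41.0% of all genes.

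The 14 other class I genes differed among themselves. After ConA 6 rose and 3 fell: H2-Q4 was 295 to 594 CPM against 29.7 to 47.2 in CIV (3.61 ± 0.39), H2-Q6 rose by 2.73 ± 0.31, and H2-T24 was at −2.01 ± 0.49. H2-T24 also led the list after ANIT (−2.51), TAA (−2.26), MDA (−1.92) and APAP (−1.84). With it 8 fell and 0 rose after ANIT, 8 and 2 after TAA, 4 and 2 after MDA and 7 and 1 after APAP, with H2-Q7 at −1.52 after ANIT and −1.28 after TAA. After CCl4 5 fell and 0 rose, led by Fcgrt, the receptor that salvages albumin and IgG (−1.39 ± 0.12), and the liver-made H2-Q10 (−1.31 ± 0.11). After GAL 5 fell and 2 rose, with H2-Q10 at −1.81, H2-Q1 at 1.98 and H2-Q2 at 4.32 to 7.39 CPM against at most 0.723 in CIP. Hepatocyte markers moved in the last pair: all 4 fell in CCl4 and in GAL livers, and their part was not tested. The Q genes share much sequence, with 43.4% of the 31-base words of H2-Q4 and 50.3% of those of H2-Q6 found in other genes, so values of single Q genes are uncertain.

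The interferon gamma signal was read through 9 genes. Ifng itself was 0 in both CIV mice and 0.443 to 3.23 CPM in the ConA mice, and 0 in every ANIT and APAP mouse, while Ctrl mice had up to 0.463. Irf1 was 120 to 591 CPM after ConA against 24.4 and 37.9 in CIV (3.54 ± 0.62, edgeR adjusted p 0.00192), Irf8 rose by 4.73 ± 0.55, and Socs1, the feedback inhibitor, was 9.00 to 31.2 CPM against at most 0.187. In all 6 of 9 rose and 0 fell, beside 34.2% of all genes called.

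Irf1 was lower after TAA (−0.84) and APAP (−0.52) and was not called after ANIT (−0.16) or MDA (0.04). Nlrc5 was not called after any of the 4, from −0.48 after TAA to 0.61 after ANIT. Of this list edgeR called 0 of the 7 tested genes after ANIT, none of which had an unadjusted p under 0.05, and DESeq2 and limma called 0 too. After MDA 1 fell and 1 rose, after APAP 1 fell and 5 rose, and after TAA 2 fell and 6 rose, with Ifngr1, a receptor chain, at 2.10 after TAA and 1.04 after APAP. After CCl4 Irf2 (−1.31) and Irf1 (−1.09) fell and Ifngr1 rose (0.92), and Nlrc5 (0.04) was not called. After GAL edgeR called 0 of 8 against CIP, 6 of which had an unadjusted p under 0.05 (DESeq2 called 3 and limma 0), with Irf1 at −0.12 and Nlrc5 at 0.16.

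The order of the groups by median level differed between the classes. For H2-Ab1 it ran from ANIT (11.9 CPM) and MDA (14.9) through CCl4 (20.8), TAA (23.01), APAP (27.4), CIV (37.1), ConA (37.2), GAL (37.3) and Ctrl (39.8) to CIP (59.7). Each group's range overlapped that of its neighbour in this order, except CIP. For Tap1 the order was ANIT (5.94), TAA (7.22), MDA (11.3), APAP (12.9), CCl4 (17.5), Ctrl (20.8), CIP (21.1), CIV (26.8), GAL (33.9) and ConA (202), and ConA alone was clear of its neighbour. For B2m the order began with APAP (1274) and ended with ConA (3581).

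Within groups the members also varied together. Over the 57 livers, with each group's mean removed from log2(CPM + 1), the 15 class II pairs had Pearson r from 0.333 to 0.949 (median 0.763) and the 6 class I pairs 0.231 to 0.920 (median 0.465). The 24 pairs across the classes had −0.252 to 0.642 (median 0.491). The points share libraries, depth and scaling. Outside the members, the genes most like H2-Ab1 among 12362 were H2-T23 (r 0.839), Psmb8 (0.775), H2-Q7 (0.756), Il18bp (0.742) and Il2rb (0.725). Those most like H2-K1 were H2-Q7 (0.831), H2-Q6 (0.800), Cfp (0.786), Fcgr4 (0.767) and Bcl2l1 (0.748).

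**Figure D5:**
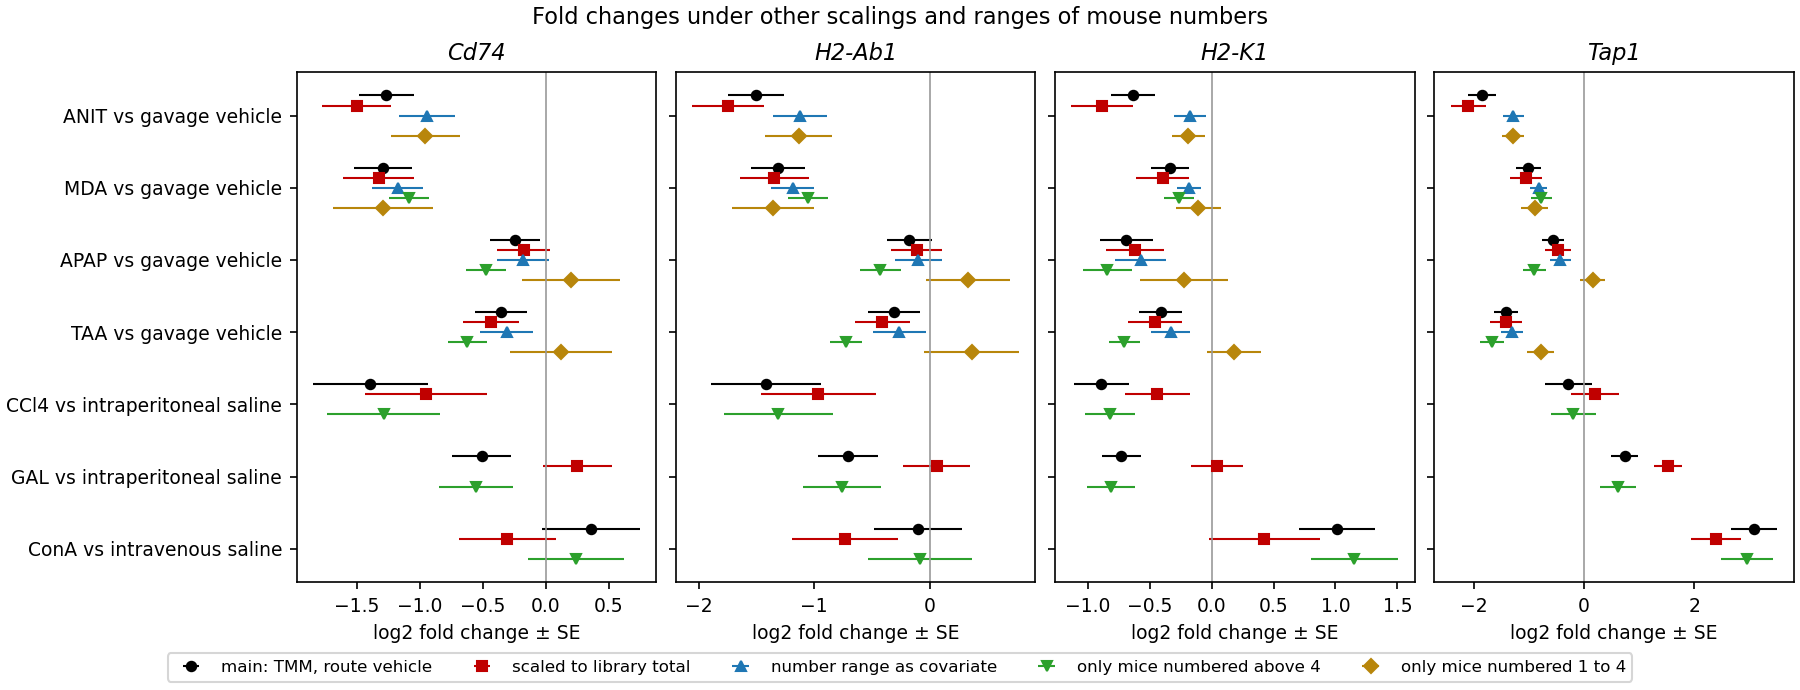
Log2 fold changes (± SE) of Cd74, H2-Ab1, H2-K1 and Tap1 for each compound against its route vehicle, as fitted and with the library total, with the range of mouse numbers as a term, and in each range of numbers alone. The Tap1 increase after ConA is above 2 on the log2 scale in both scalings (3.08 and 2.39), and the median over all genes moved with the scaling by 0.76 for GAL, −0.59 for ConA and 0.43 for CCl4.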

How the data were processed

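RNA of 57 livers was sequenced single-end from TruSeq stranded mRNA libraries on a NovaSeq 6000, per the labels' protocols. The authors deposited 1 table of estimated counts per gene. The submitters' processing notes name Salmon 1.6.0, R 4.1.3 and build GRCm39, and further steps are not given in the sources used here. Column totals differ, so the estimated counts as deposited are not scaled to a common total. Across 5980 genes with a single transcript, the least value over 0 was smaller for longer transcripts (rank correlation −0.949; the genes are not independent), so the values look corrected for length, which no header states. Of 54307 IDs, 51482 matched a symbol in GENCODE M21. H2-Ea and Marchf1 appear there as H2-Ea-ps and March1.

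Counts were rounded and tested with edgeR 4.0.16 (quasi-likelihood test, TMM, filterByExpr, Benjamini-Hochberg adjustment over all genes tested) in R 4.3.3, on the 2 groups compared. Direct pairs and differences of effects came from 1 fit of all 10 groups. SE is the absolute log2 fold change over the square root of F. Groups follow the sample labels. The fits were tested on simulated counts with known changes. Alternatives were the library total, DESeq2 1.42.0, limma 3.58.1, other filters, the range or number of the mice as a term, each range alone, and leaving out each treated, CIP or CIV mouse. Promoter windows came from RefSeq on GRCm38.p6, used for sequence only. A gene of the lists fixed for this work is not reported here. The members and lists were chosen with earlier results of these data known. Genes named beside the members were, for each list and comparison, up to 4 called genes with the largest changes, plus Nlrc5, Irf1 and Ifng, and the 5 genes most like H2-Ab1 and H2-K1.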

Additional observations from a re-analysis of the deposited data

Results flagged for a closer look

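Of 70 sets of 1 member in 1 group of 4 to 10 mice, 7 held a mouse far from the others, where chance gives about 1 in 20. TAA mouse 1 accounts for 5 of them, with 47.9 CPM for H2-Ab1, 7.21 for H2-DMa, 1166 for H2-K1, 507 for H2-D1 and 2800 for B2m, each the highest of its group. Leaving it out brought the members called lower after TAA from 2 to 5, beside 50.5% and 50.9% of all genes called. APAP mouse 1 was the highest of its group for B2m at 2324 CPM, and MDA mouse 7 for H2-Aa at 28.2 CPM.

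The ConA effect against CIV differed from the CCl4 effect against CIP by 1.72 on the log2 scale for Cd74, 1.89 for H2-K1, 2.01 for H2-D1, 1.22 for B2m and 3.37 for Tap1. It differed from the GAL effect by 1.70 for H2-K1, 2.31 for H2-D1 and 2.32 for Tap1. Each passed the edgeR test of the difference itself, and each rests on 2 mice per vehicle.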

How the results depend on the processing

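With 2 mice in CIP and in CIV, and scaling that moves the median of all genes by up to 0.83 in single comparisons, small differences after CCl4, GAL and ConA are not resolved, and Ciita rests on few counts. Of 1781 values of the 10 members under alternatives, 1558 stayed on the same side of the threshold, 163 lost the call and 54 gained it. Another 6 changed sign while past the threshold in at least 1 of the 2 fits, and 122 changed sign in all. The cause of the changes below was not tested.

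Counts of members called moved as follows, with the share of all genes called in the same fit in parentheses. With the library total they were 1 after APAP (29.1%), 0 and 2 after CCl4 against CIP (36.9%) and all vehicles (62.5%), 8 after GAL (66.2%) and 8 after ConA (67.8%) against all vehicles, 7 between the Ctrl ranges (5.57%), 0 for APAP against TAA (6.78%), 8 for CCl4 against GAL (27.2%), and 1 and 0 for the differences of ConA from CCl4 (34.5%) and GAL (38.2%). Only with mice numbered 1 to 4 they were 5 after ANIT (13.7%), 0 after APAP (6.28%), 2 after MDA (10.4%), 0 after TAA (19.4%), 0 for ANIT against APAP (0.239%) and against TAA (2.68%), 0 for APAP against MDA (0.521%) and against TAA (0.00694%), and 1 for MDA against TAA (5.48%). Only with mice numbered above 4 they were 8 after TAA (47.4%), 2 after CCl4 against CIP (32.1%), 1 after GAL against all vehicles (41.8%), 0 for APAP against MDA (0.429%) and against TAA (7.24%), 2 for MDA against TAA (H2-K1 and H2-D1, both higher; 21.3%) and 1 for CCl4 against GAL (35.9%). With a log2 fold change of at least 1 they were 0 after APAP (13.7%), 1 after TAA (25.2%) and 0 after GAL (23.5%). After GAL against CIP, DESeq2 called 4 (37.6%), no filter 0 (12.3%), a mean CPM of at least 5 gave 2 (43.4%), 1 fit of all 10 groups 0 (4889 of 18781 genes) and limma 2 (30.3%). After CCl4 against CIP, no filter gave 2 (18.5%). In the fit of the 2 groups alone, APAP against TAA gave 0 (2.62%).

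The replicate number was not taken to pair the mice, since the labels tie it to nothing shared and not every pair deviated together: same-numbered mice deviated together by more than 0.1 in 0 of 4 pairs for ANIT, 1 of 4 for APAP, 0 of 7 for MDA and 3 of 4 for TAA. With a replicate block, 1 member was called after ANIT (6.84% of all genes), 0 after APAP (1.65%), 6 after MDA (19.2%), 2 after TAA (33.9%) and 1 after GAL (25.7%). No paired analysis was possible for CCl4 and ConA because they share fewer than 2 numbers with their vehicle.

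Treated mice and the saline vehicle mice of CIP and CIV were left out in turn, the Ctrl mice and, against all vehicles, the vehicle mice were not. This gave 9 to 9 members called after ANIT, 1 to 3 after APAP (1 without APAP mouse 2, where H2-K1 and Tap1 were lost), 8 to 8 after MDA and 1 to 5 after TAA (5 without mouse 1, and 1 without mouse 3, 6 or 8, where B2m was lost). Against CIP it gave 0 to 8 after CCl4 (0 without either CIP mouse, 2 or 3 without CCl4 mouse 1, 5, 6, 10 or 12) and 0 to 1 after GAL (0 without GAL mouse 4 or 8 or either CIP mouse). It gave 2 to 3 after ConA against CIV, and against all vehicles 5 to 8 after CCl4, 2 to 2 after GAL and 4 to 5 after ConA.

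The values named in the text that changed sign while past the threshold in at least 1 of the 2 fits were as follows. With the library total they were H2-K1 (0.0438) and Tapbp (0.0447) after GAL against CIP. After GAL against all vehicles they were H2-Ab1 (0.69), H2-DMa (0.80), B2m (0.38), Psmb8 (0.14), Psmb9 (0.10), Tapbp (0.12), Tap2 (0.62), H2-Q7 (0.0699), H2-T23 (0.0784) and Irf2 (0.33). B2m was called in both of these fits, lower with TMM and higher with the library total. Also against all vehicles they were H2-Q1 (0.0833) after CCl4, and H2-Aa (−0.68), Lgmn (−0.18), Calr (−0.40) and Pdia3 (−0.0842) after ConA. For ConA against GAL they were H2-Q10 (−0.31) and Fcgrt (−0.0685). With mice numbered 1 to 4 they were Tap1 after APAP (0.16), Ctss after MDA (0.56) and H2-Q10 for MDA against TAA (−0.0081), and with those above 4 Calr after ConA (−0.0034).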

Other observations

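Socs1 and H2-Q4 stood apart in APAP mouse 1, a pair of genes chosen after their values were seen. Its Socs1 level was 22.4 CPM, where the other 5 had at most 0.384, the Ctrl mice at most 0.765 and the ConA mice 9.00 to 31.2. H2-Q4 was 240 CPM in this mouse and at most 32.5 in the others of its group. In the same liver Ifng was listed at 0, and its Tap1 level of 18.0 CPM stayed inside the Ctrl range. Its cholangiocyte markers summed to 43.7 CPM, the highest of its group, where the lowest was 5.76, the median 7.80 and the Ctrl range 3.91 to 10.3, against 12.3 to 25.8 in the TAA mice and 30.1 to 68.3 in the ConA mice.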
